A study of Mus musculus with 6 samples.

Results

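The transcripts described here are the non-coding RefSeq transcripts of mouse liver, apart from H19 and Meg3, that an Agilent expression array could measure. Members were chosen by 2 things: a RefSeq accession with the prefix of non-coding transcripts, and the scanner software's mark of a signal well above background, required on the 3 PVBL arrays or on the 3 sham arrays. This gave 327 of 740 candidate probes (44.2%), from 55681 probes on the array, and 50.1% of all probes passed the same rule. They stood for 273 accessions, and 284 probes matched 238 genes by symbol. A transcript filed as non-coding is a statement of the annotation, and the set held long non-coding RNAs, small RNAs, pseudogene transcripts and non-coding transcripts of coding genes.

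The liver samples came from male C57BL/6J mice 3 days after an operation on the portal vein, the liver's inflow from the gut. In the PVBL group (3 samples) the left portal branch was ligated and RNA came from the right lobe, the regenerating part, which kept its portal flow. Sham operations were done in the other group (3 samples). The labels number the samples but do not say that each was a separate animal, and a p-value here weighs a difference against the spread of these samples, some of which may be technical.

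Each sample had 1 single-colour (Cy3) array, and all 6 arrays lay on 1 slide. One row held the sham arrays and another the PVBL arrays, so row and operation cannot be told apart. Between 48.1% and 53.7% of probes were well above background on an array, and precision is limited by having 3 arrays in a group. Over all probes, arrays correlated at 0.982 or higher within a group and at 0.955 to 0.967 between groups. A level below is log2 of the processed signal minus the array's 75th percentile, and a difference is the PVBL mean minus the sham mean on that scale.

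Non-coding transcripts reach their roles in different ways. Small nucleolar RNAs (snoRNAs) guide the chemical modification of ribosomal RNA and are cut from the introns of host genes, several of whose spliced exons carry little coding potential and are destroyed by nonsense-mediated decay. Other long transcripts release microRNAs, hold nuclear bodies together or run antisense through coding genes, while pseudogene transcripts are copies of coding genes that have lost the reading frame.

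Both microRNA host transcripts that fell in PVBL liver are known by the microRNAs they release, so these are shown first, as RefSeq mature sequences 5′ to 3′ with the seed (bases 2 to 8) in capitals. The array measured the host transcripts and not these microRNAs.
miR-22-3p: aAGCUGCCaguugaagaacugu
miR-15a-5p: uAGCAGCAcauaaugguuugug
miR-16-5p: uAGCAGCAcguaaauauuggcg
The first lies within Mir22hg at chr11:75463772-75463793 on the plus strand (GRCm38.p6). The other two lie within Dleu2, at chr14:61632075-61632096 and chr14:61631936-61631957 on the minus strand, and share the seed AGCAGCA.

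Host genes of snoRNAs often begin with a run of pyrimidines at the transcription start, the feature that ties the translation of ribosomal protein mRNAs to growth signals. RefSeq starts were in the table for 10 of 11 host genes described below. Windows of 40 bases, from 10 before the start to 30 after it, are shown for 5 of them, with the longest run in capitals of at least 5 pyrimidines that begins with C within 5 bases of the start.
Snhg12: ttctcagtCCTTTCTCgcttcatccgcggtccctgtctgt
Snhg7: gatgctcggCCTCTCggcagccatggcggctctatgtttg
2410006H16Rik: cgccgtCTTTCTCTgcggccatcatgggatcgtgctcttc
Snhg3: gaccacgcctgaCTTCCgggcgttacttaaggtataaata
Snhg1: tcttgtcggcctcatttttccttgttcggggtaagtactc
These lie at chr4:132308668-132308707 (plus strand), chr2:26640215-26640254 (minus), chr11:62602867-62602906 (plus), chr4:132353657-132353696 (minus) and chr19:8723477-8723516 (plus) of GRCm38.p6. Windows of 3 widths around the start were tried after the sequences had been seen, and the count rises with the window. The 10 genes have 12 starts, and a run could be read from exactly the start in 2 of them and in 2.51% of all 32851 starts in the table. In Snhg7 that run is part of the marked one, which begins just before the start. Within 2 bases the counts were 4 of 12 starts and 8.96%, and within 5 bases 7 of 12 starts (6 of the 10 genes) and 18.3%. Snhg12 and Snhg3, whose differences below have opposite signs, both carry a run under the wider windows.

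Of the 327 probes, 284 were well above background on all 6 arrays, and adjusted p-values are given for these alone. The other 43 were complete in 1 group only, 7 in PVBL and 36 in sham. Because the same arrays chose the members, counts over them are a description. Among the 284, 21 were higher and 66 lower in PVBL liver at an adjusted p of 0.05 (limma, Benjamini-Hochberg over 27919 probes). That is 30.6%, near the 28.7% of all 24665 probes of the same kind, of which 10.6% were higher and 18.1% lower. The median difference was -0.24 over these members and -0.17 over all such probes. PVBL and sham levels did not overlap for 144 of the 284 members and for 12328 of the 24665 probes. A gap between the groups is thus common on these arrays.

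The excess of lower calls depended on the scaling. When arrays were scaled on the added spike-in RNA, which moved the median of all probes from -0.17 to 0.27, 19 members were higher and 5 lower. Scaling to the array median gave 30 higher and 44 lower. Lower calls numbered 32 without sham 1, 43 without PVBL 1, 42 without sham 2 and 38 without sham 3, and higher calls numbered 13 without sham 1 and 13 without sham 2. At 2-fold or more, 9 called members rose and 21 fell. The same count over all probes is not given here, so these numbers only describe the members.

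**Figure D1:**
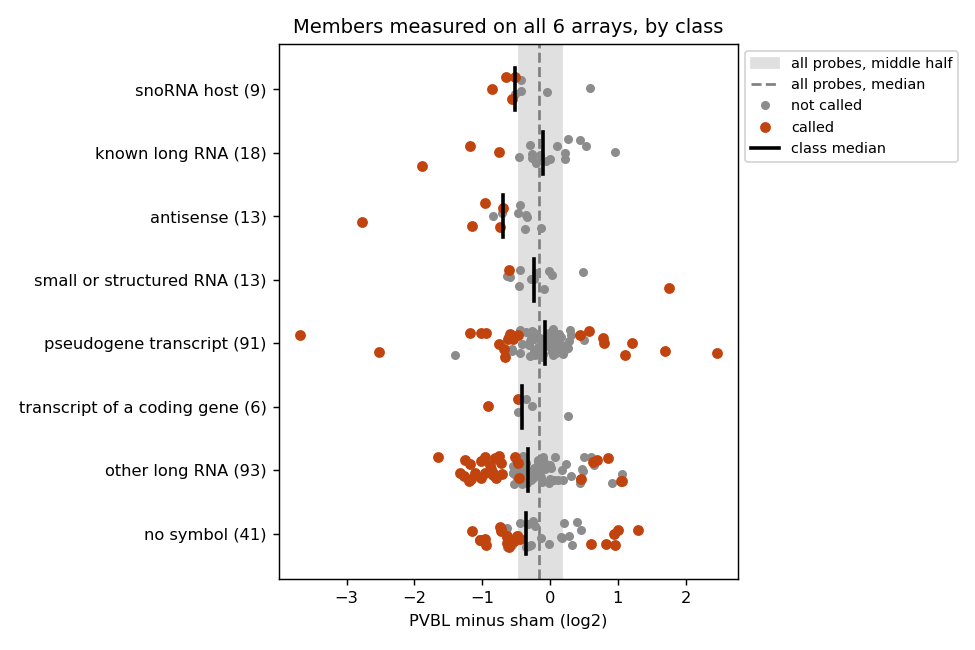
Difference between PVBL and sham liver (log2, x axis) for the 284 members measured on all 6 arrays, by class with the number of probes in brackets; bars are class medians and the grey band holds the middle part of all probes. Class medians lie between -0.69 for antisense transcripts and -0.07 for pseudogene transcripts, and the extremes in both directions are pseudogene transcripts.

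Among host transcripts of snoRNAs, 4 of 9 fell in PVBL liver, each probe standing for another gene, while none rose and 5 were not called. Their median difference was -0.51, or -0.076 with spike-in scaling, and 18.1% of all probes measured on all arrays were called lower. Snhg12, which holds 4 snoRNAs (Snora16a, Snora44, Snora61 and Snord99), read 1.56, 1.43 and 1.497 on the PVBL arrays and 2.29, 2.18 and 2.60 on the sham arrays. Every PVBL array was below every sham array, and the fall of 1.82-fold (log2 difference -0.86, SE 0.15, adjusted p = 0.00741, limma) held without any 1 array.

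Snhg6, the host of Snord87, read 4.01, 4.25 and 3.74 in PVBL and 4.84, 4.74 and 4.37 in sham liver. It was called lower (-0.65, SE 0.19, adjusted p = 0.0410, limma), although the call was lost without PVBL 1 (-0.65), PVBL 3 (-0.52), sham 1 (-0.55) or sham 2 (-0.60). Snhg1, whose introns hold Snord22 and further snoRNA genes, read -0.36, -0.09 and -0.43 in PVBL and 0.15, 0.15 and 0.51 in sham liver. Its fall (-0.56, SE 0.16, adjusted p = 0.0399, limma) lost its call without PVBL 1 (-0.53), PVBL 3 (-0.49), sham 1 (-0.62), sham 2 (-0.62) or sham 3 (-0.44).

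Snhg17 read -0.10, -0.26 and -0.55 in PVBL and 0.26, 0.24 and 0.14 in sham liver. The groups did not overlap (-0.52, SE 0.15, adjusted p = 0.0404, limma), and the call was lost without PVBL 2 (-0.54), PVBL 3 (-0.40), sham 1 (-0.50), sham 2 (-0.50) or sham 3 (-0.56). With spike-in scaling none of these 4 hosts was called, and their differences were -0.43 for Snhg12, -0.21 for Snhg6, -0.13 for Snhg1 and -0.09 for Snhg17. Array-median scaling ended the calls of Snhg6 (-0.51), Snhg1 (-0.42) and Snhg17 (-0.38), and normexp correction that of Snhg6 (-0.56).

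The remaining hosts were not called. Snhg16, host of Snord1a, Snord1b and Snord1c, differed by -0.51 (SE 0.22), Dancr, which holds Snora26, by -0.43 (SE 0.15) and Snhg7, which holds Snora17 and Snora43, by -0.43 (SE 0.17). Snhg10, host of the Cajal body RNA Scarna13, differed by -0.04 (SE 0.12) and its groups overlapped.

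Snhg3 was the exception in sign. It carries Snora73a and Snora73b, forms of the U17 snoRNA that acts in the cleavage of ribosomal RNA. It read 3.27, 3.51 and 3.87 in PVBL and 2.84, 2.85 and 3.17 in sham liver, so every PVBL array was above every sham array. The difference of 0.60 (SE 0.19, adjusted p = 0.0519, limma) missed the threshold. It passed with array-median scaling (0.73), normexp correction (0.66), a filter on all 6 arrays (0.60) or array weights (0.42), and without PVBL 1 (0.74).

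Further members span snoRNA genes by position, and a pair of them were added to the hosts after their values were seen. Those not added were Gm4759, which spans Gm22372, and 4833422C13Rik, which spans Gm22778. The latter differed by -0.39 without being called. 2410006H16Rik, which spans Snord49a, Snord49b and Snord65, read 3.54, 3.49 and 3.69 in PVBL and 4.23, 4.12 and 4.55 in sham liver and was called lower (-0.73, SE 0.15, adjusted p = 0.0146, limma). 1110038B12Rik, which spans Snord52, differed by -0.08 (SE 0.13) and its groups overlapped.

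**Figure D2:**
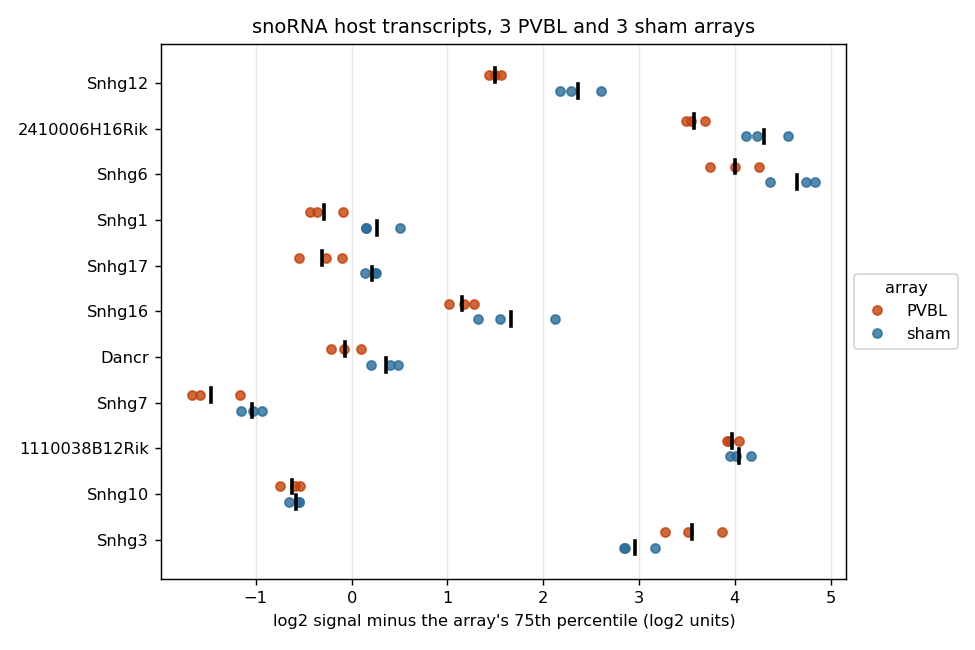
Level of the 9 listed snoRNA hosts and of 2 transcripts that span snoRNA genes (log2 signal relative to the array's 75th percentile, x axis), each point 1 array and each bar a group mean, ordered by difference. Snhg12 at the top reads 1.43 to 1.56 in PVBL against 2.18 to 2.60 in sham liver, and Snhg3 at the bottom runs the other way.

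Of 13 listed core and assembly proteins of snoRNA particles, 5 rose, none fell and 8 were not called, with a median difference of 0.26, where 11.0% of all probes tested rose. Those that rose were Nop58 (1.44) and Nop56 (1.06), scaffolds of the box C/D particle, Gar1 (1.08) and Nhp2 (0.71), core proteins of the box H/ACA particle, and the chaperone Nolc1 (1.09). Nop10 (-0.47) and Naf1 (-0.11), both of the box H/ACA pathway, were among those not called. Of 14 nonsense-mediated decay factors tested, 1 rose, the exon junction protein Rnps1 (0.54), and none fell, and Upf1, the helicase of the pathway, differed by 0.31 (SE 0.18) without being called.

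The listed long RNAs other than snoRNA hosts were covered in part. Of 44 genes on the list, 22 had a candidate probe and 13 had a member, with 21 probes in all. On the 18 probes measured on all arrays, 3 fell, none rose and 15 were not called, with a median of -0.11, where 28.7% of all probes measured on all arrays were called. Xist, the X-inactivation RNA, had candidate probes but none passed, as did 8 more listed genes.

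The microRNA hosts held the largest falls among them. Mir22hg read -1.15, -0.85 and -0.58 in PVBL and 1.16, 0.82 and 1.12 in sham liver, a gap wider than the range of either group. It fell 3.71-fold (log2 difference -1.89, SE 0.18, adjusted p = 0.000809, limma) and was called in each alternative run. Dleu2 read 1.94, 1.97 and 1.49 in PVBL and 2.90, 3.26 and 2.76 in sham liver. It fell 2.26-fold (-1.17, SE 0.20, adjusted p = 0.00638, limma), and with spike-in scaling the difference was -0.74 and not called.

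Mir17hg, the host of a microRNA cluster that promotes cell growth, read -2.13, -1.81 and -1.61 in PVBL and -2.05, -2.11 and -1.69 in sham liver. Its groups overlapped and its difference was 0.10 (SE 0.19). Mirg, the microRNA-rich RNA of the imprinted Dlk1-Dio3 region, was well above background on 3 PVBL and 2 sham arrays, and its levels overlapped between -3.56 and -2.67 in PVBL and -4.19 and -3.10 in sham liver.

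Among imprinted RNAs, Peg13, which is expressed from the paternal chromosome within Trappc9, read 0.44, 0.10 and 0.54 in PVBL and 1.00, 1.40 and 0.93 in sham liver. It was called lower (-0.75, SE 0.19, adjusted p = 0.0245, limma), and the call was lost without PVBL 1 (-0.79), PVBL 2 (-0.62), sham 1 (-0.80) or sham 2 (-0.60), and with spike-in (-0.31) or array-median scaling (-0.61). Kcnq1ot1, which silences genes around Kcnq1 in cis, differed by 0.44 (SE 0.21) on a probe measured on all arrays, and its groups overlapped. Another Kcnq1ot1 probe, not measured on all arrays, had the opposite sign at -0.15.

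Airn, the antisense RNA that silences Igf2r on the paternal chromosome, had 2 probes that read differently. The first read 0.86, 0.73 and 0.88 in PVBL and 0.66, 0.62 and 0.52 in sham liver (0.22, SE 0.12, not called). The second read -2.17, -2.36 and -2.23 in PVBL liver and was not well above background on any sham array, where it read -4.36, -4.38 and -4.35. It was at least 3.93-fold higher, counting a dim probe at no less than the lowest signal well above background on its array, and the fold was 1.39 with normexp background correction.

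The nuclear RNAs were not called. Neat1, the scaffold of paraspeckles, read 3.38, 2.65 and 4.002 in PVBL and 2.58, 3.04 and 2.84 in sham liver, so the groups overlapped and PVBL arrays spread more (0.53, SE 0.33). The difference was called without PVBL 2 (0.87) and with array weights (0.58). Malat1, a long RNA of nuclear speckles, differed by 0.22 (SE 0.17). Of 10 listed paraspeckle protein genes, 7 rose and none fell, with a median of 0.74, where 11.0% of all probes tested rose. Pspc1 (1.62), Rbm14 (1.00) and Sfpq (0.85) were among those that rose, and Nono (0.20), Hnrnpk (-0.15) and Nudt21 (0.11) were not called. Pspc1 varied within its group, at 1.39 on PVBL 2 against -0.19 on PVBL 1 and -0.33 on PVBL 3.

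Pvt1, the long RNA beside Myc, differed between its 2 probes, at 0.96 (SE 0.35) and -0.15 (SE 0.13). On the first probe PVBL arrays read 0.49, 0.68 and 0.60, sham 1 and sham 2 read -0.71 and -0.91 and sham 3 read 0.49. The difference was not called (adjusted p = 0.0725, limma), but it was without sham 3 (1.39) and, with all arrays, under array-median scaling (1.10), spike-in scaling (1.40), normexp correction (0.78) or array weights (1.12). Norad, which binds Pumilio proteins, ranged from -0.46 to -0.06 over 4 probes, Tug1 from -0.26 to 0.27 over 3 probes, and Ftx, from the X-inactivation centre, differed by -0.26 (SE 0.16), with no probe of them called.

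**Figure D3:**
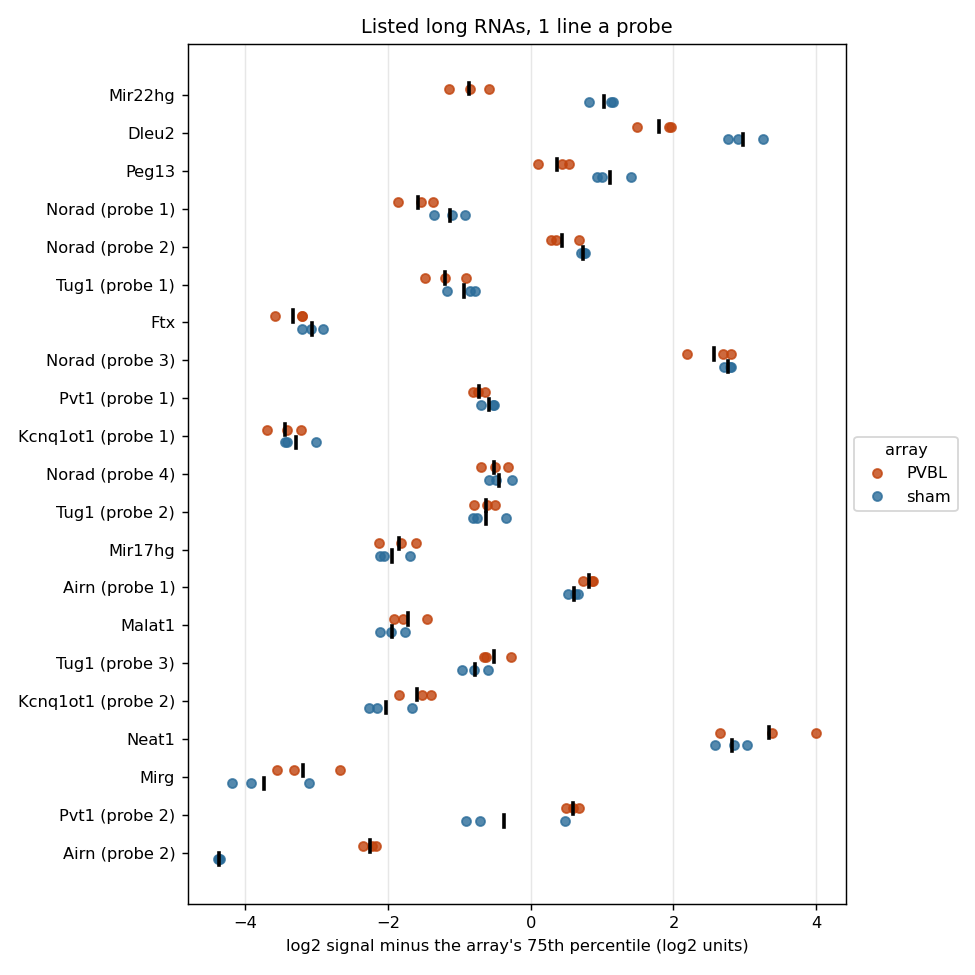
Level of the listed long RNAs (log2 signal relative to the array's 75th percentile, x axis), 1 line for each of 21 probes, points for arrays and bars for group means, ordered by difference. Mir22hg, Dleu2 and Peg13 at the top separate the groups, and the second Airn probe at the bottom is not well above background on any sham array.

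Antisense transcripts were lower in PVBL liver where they were called. Of 13 measured on all arrays, 5 fell, none rose and 8 were not called, with a median of -0.69 and a range from -2.77 to -0.14. Among all probes measured on all arrays, 18.1% were called lower and 10.6% higher. The largest fall was that of Hnf4aos, which overlaps Hnf4a, the nuclear receptor that keeps hepatocyte identity, on the other strand. Hnf4aos read 0.95, 1.35 and 0.84 in PVBL and 3.94, 3.52 and 3.999 in sham liver. That is a fall of 6.84-fold (log2 difference -2.77, SE 0.20, adjusted p = 0.000202, limma), called in each alternative run.

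The Hnf4a probe itself differed by -0.17 (SE 0.14, not called). Of 10 hepatocyte markers, 2 fell and none rose, with a median of -0.39, where 19.5% of all probes tested fell. Their summed signal, in units of the array's 75th percentile, ranged from 3465 to 4580 in PVBL and from 4851 to 5432 in sham liver. In whole tissue, fewer cells of a type and less RNA per cell cannot be told apart, and the part of the hepatocyte share in these results was not tested.

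Zbtb11os1 fell 2.23-fold, from 1.73, 1.91 and 1.44 in sham to 0.80, 0.58 and 0.24 in PVBL liver (adjusted p = 0.00668, limma). Zbtb11, the zinc finger gene it overlaps, differed by -0.11 (SE 0.19). Atad3aos read -3.35, -3.55 and -3.23 in PVBL and -2.24, -2.54 and -2.46 in sham liver (-0.97, SE 0.15, adjusted p = 0.00483, limma). Its neighbour Atad3a, a mitochondrial ATPase gene, differed by -0.42 (SE 0.16) and was not called. With spike-in scaling Zbtb11os1 (-0.72) and Atad3aos (-0.53) lost their calls.

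Dlx6os2 and G6bos fell by 0.74 (SE 0.19) and 0.69 (SE 0.12) on the log2 scale, with adjusted p-values of 0.0249 and 0.00833 (limma). Dlx6os2 lost its call without sham 1 (-0.67) or sham 2 (-0.69), and with array-median scaling (-0.60), and both lost it with spike-in scaling. Dio3os, from the imprinted locus of the thyroid hormone deiodinase Dio3, differed by -0.85 and was not called. Emx2os and Tnk2os were well above background on all sham arrays and no PVBL array, at least 2.14-fold and 1.91-fold lower when dim probes are counted as for Airn. Has2os was in the same position, but its PVBL and sham levels overlapped. The log2 difference of Tnk2os was -1.17, but -0.44 under normexp correction and -0.79 without PVBL 1.

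Members were then paired with the coding genes that overlap them on the opposite strand, a step added after the members' values were seen. In 31 pairs, from 27 members, both partners were measured on all arrays. No pair had both partners called higher, and none had both called lower. Among all probes measured on all arrays, 10.6% were called higher and 18.1% lower. Overlaps of unknown strand were left out. These included Peg13 with Trappc9, both called lower (-0.75, and -0.56 on the brightest Trappc9 probe), and Kcnq1ot1 with Kcnq1, neither called. In 2 pairs the partners were called in opposite directions, in 8 only the member was called, in 9 only the coding gene and in 12 neither. Across these pairs, measured on the same arrays and some sharing a member, the differences had a Pearson r of 0.04 and a Spearman rho of 0.18.

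The opposed pairs were Dleu2 with Trim13, a ubiquitin ligase gene, and 9330151L19Rik with Dnaaf2, a gene for assembling dynein arms. Trim13 rose by 1.11 (SE 0.13, adjusted p = 0.00180, limma) as Dleu2 fell by 1.17. 9330151L19Rik fell by 1.17 (adjusted p = 0.00579, limma) and Dnaaf2 rose by 0.62 (SE 0.17). Gm14207 was measured on all sham arrays and 1 PVBL array, at -4.60, -4.51 and -3.76 in PVBL against -2.19, -2.55 and -2.40 in sham liver. Dll4, the Notch ligand gene opposite it, rose by 1.77 (SE 0.27, adjusted p = 0.00459, limma). Igf2r, opposite Airn, rose by 0.54 (SE 0.15).

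**Figure D4:**
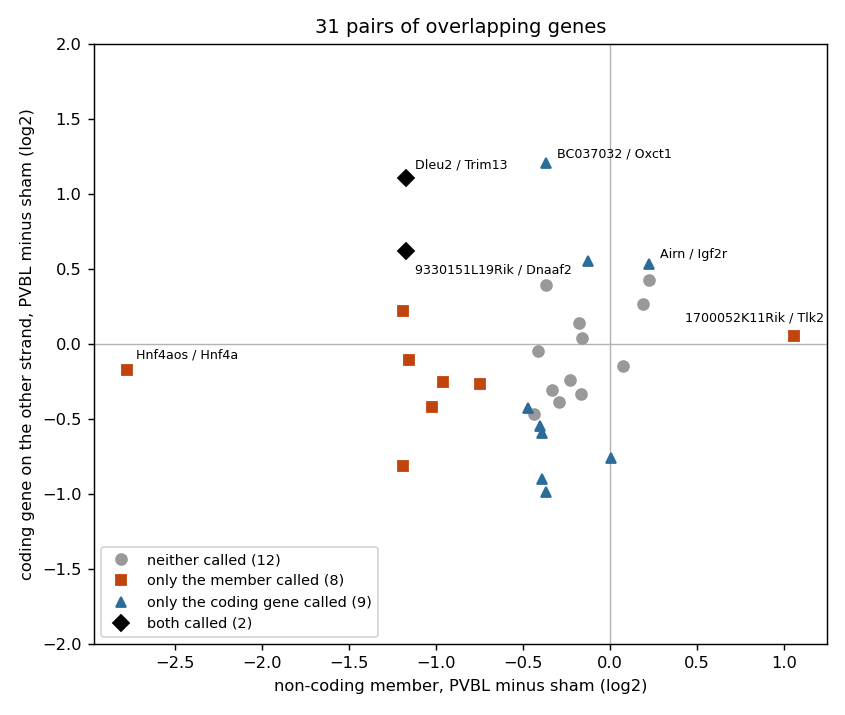
Differences of 31 pairs measured on all 6 arrays, the non-coding member on the x axis and the coding gene on the opposite strand on the y axis (PVBL minus sham, log2), with shape and colour for which partner was called. The opposed pairs of Dleu2 and 9330151L19Rik lie at the upper left, and Hnf4aos lies far left at -2.77 with Hnf4a near 0.

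Small and structured RNAs, 13 probes all measured on every array, had 1 higher and 1 lower call and a median of -0.24. The share called was 15.4%, against 28.7% of all probes measured on all arrays. Rnu3b1, a U3 snoRNA gene whose product acts in the first cleavages of ribosomal RNA, read 3.58, 4.96 and 3.88 in PVBL and 2.46, 1.39 and 3.32 in sham liver. It rose 3.37-fold (SE 0.54 on the log2 scale, adjusted p = 0.0457, limma) with a wide spread in both groups. The call was lost without PVBL 1 (2.03), PVBL 2 (1.34), PVBL 3 (1.88), sham 1 (1.79) or sham 2 (1.25), and U3 has near-identical gene copies that the probe may not separate.

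Rnu7, the U7 RNA that processes histone mRNA ends, read -1.47, -1.22 and -1.33 in PVBL and -0.79, -0.77 and -0.61 in sham liver. It fell by 0.61 (SE 0.13, adjusted p = 0.0153, limma), and lost its call without PVBL 1 (-0.55), sham 1 (-0.64) or sham 3 (-0.56), and with spike-in scaling (-0.18). Terc, the RNA template of telomerase, differed by -0.63 without being called. The ribonuclease RNAs Rmrp and Rpph1 differed by -0.01 and 0.02.

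Pseudogene transcripts held the extremes of the set in both directions. Of 91 probes measured on all arrays, 8 rose, 12 fell and 71 were not called, and the median was -0.07. The share of this class that was called lay below the 28.7% of all probes measured on all arrays. Gm4956 read 0.70, 0.33 and 1.49 in PVBL and 4.31, 4.54 and 4.73 in sham liver, 12.9-fold lower (-3.69, SE 0.29, adjusted p = 0.000341, limma). Serpina4-ps1, a pseudogene of the serpin family of protease inhibitors, read 2.17, 3.33 and 2.51 in PVBL and 5.03, 4.50 and 6.04 in sham liver. It was 5.74-fold lower (-2.52, SE 0.44, adjusted p = 0.00758, limma), and the groups did not overlap although the sham arrays were spread widely.

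The largest rise was that of Tubb2a-ps2, a copy of the beta-tubulin gene Tubb2a. It read 1.86, 1.93 and 1.68 in PVBL and -0.67, -0.54 and -0.70 in sham liver, 5.49-fold higher (2.46, SE 0.13, adjusted p = 5e-05, limma). Tubb2a itself differed by 2.51 (SE 0.16), and the probes may not separate the copies.

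Tyms-ps, a copy of the thymidylate synthase gene, was called higher, while the dimmer probe of its parent was not called. Tyms-ps read 2.82, 3.48 and 2.63 in PVBL and 1.27, 1.17 and 1.42 in sham liver (1.69, SE 0.23, adjusted p = 0.00311, limma). The only Tyms probe tested read -2.36, -2.05 and -2.33 in PVBL and -2.14, -2.24 and -2.23 in sham liver (-0.05, SE 0.14). How well it reports Tyms mRNA was not tested. The difference between these probes was not tested, and whether the pseudogene probe also detects Tyms mRNA is not known from the files.

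Gm5643 rose by 1.21 (SE 0.16, adjusted p = 0.00307, limma), with 3.54, 3.91 and 3.46 in PVBL against 2.30, 2.43 and 2.55 in sham liver. Macroh2a3, named after its values were seen, resembles the macroH2A histone genes and rose by 1.11 (SE 0.17, adjusted p = 0.00491, limma). Its coding relatives Macroh2a1 and Macroh2a2 differed by 0.42 (SE 0.19) and -0.16 (SE 0.12) and neither was called on its brightest probe. Of 3 Macroh2a1 probes, with differences from 0.32 to 0.50, 1 was called higher. By position Macroh2a3 lies inside Pvt1, described above, with the relation of their strands unknown.

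Pseudogenes of the Cyp2d cytochrome family named here were called lower, as were several of their coding relatives. Cyp2d13, of the Cyp2d family that oxidises drugs and steroids, read 1.52, 1.52 and 0.92 in PVBL and 2.46, 2.44 and 2.63 in sham liver (-1.19, SE 0.19, adjusted p = 0.00575, limma). Cyp2d37-ps, also named after its values were seen, differed by -1.01 (SE 0.13, adjusted p = 0.00235, limma). The coding genes Cyp2d10 (-0.98), Cyp2d9 (-0.74) and Cyp2d22 (-0.64) fell, and Cyp2d26 differed by -0.48 without being called. Members of this family are close in sequence, so values may be shared between them, and Cyp2d13 lost its call with spike-in scaling (-0.75).

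**Figure D5:**
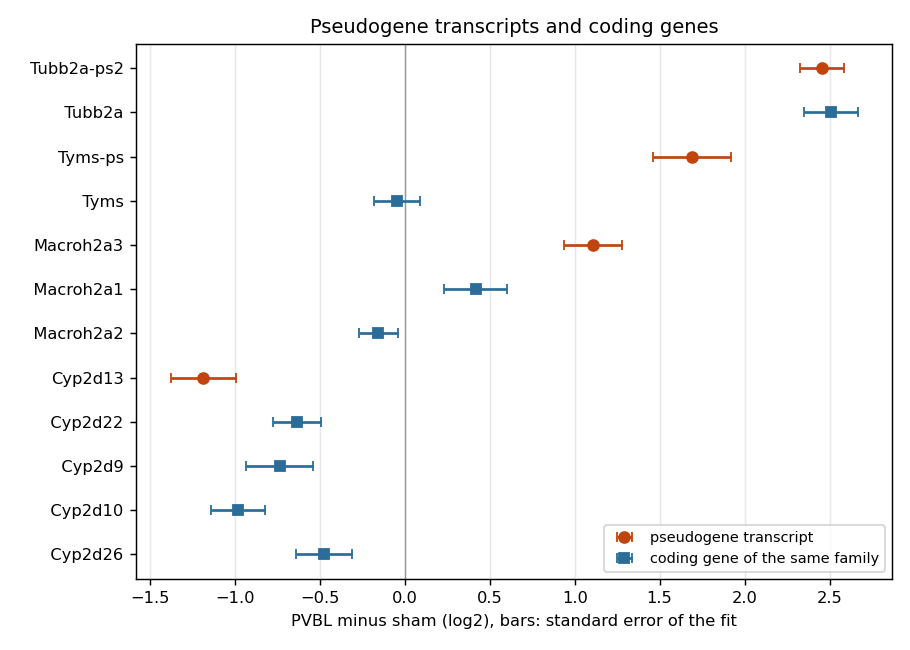
Difference between PVBL and sham liver (log2, x axis) for 4 pseudogene transcripts (circles) and coding genes of the same family (squares), with the standard error of the fit as bars. Tubb2a-ps2 and Tubb2a lie together near 2.5, whereas Tyms-ps lies at 1.69 and the dimmer Tyms probe at -0.05.

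A pair of pseudogene probes were far apart between groups without being measured on all arrays. 1700049L16Rik read -2.98, -2.76 and -3.24 in PVBL and was not well above background in sham liver, at least 2.34-fold higher, with a fold of 1.23 under normexp correction. 2700099C18Rik, on 3 PVBL arrays and 1 sham array, read -1.38, -1.17 and -1.19 in PVBL and -4.12, -3.90 and -3.31 in sham liver. Speer8-ps1, found in sham liver alone, was at least 1.60-fold lower in PVBL liver.

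Non-coding transcripts of coding genes gave 6 probes measured on all arrays, of which 2 fell and none rose. The share called was 33.3%, near the 28.7% of all probes measured on all arrays. Speer1, of a gene family expressed in spermatids, fell by 0.91 (SE 0.24, adjusted p = 0.0288, limma) and the zinc finger gene Zfp672 by 0.48 (SE 0.15, adjusted p = 0.0467, limma). Speer1 lost its call without PVBL 1 (-0.78), PVBL 2 (-0.86), sham 1 (-0.91) or sham 3 (-0.72). Zfp672 lost it without PVBL 1 (-0.49), PVBL 3 (-0.38), sham 1 (-0.46), sham 2 (-0.55) or sham 3 (-0.42). With spike-in scaling Speer1 (-0.48) and Zfp672 (-0.04) were not called, and with array-median scaling Zfp672 (-0.34) was not.

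The remaining long RNAs, most of them without a described function, gave 93 probes measured on all arrays, with 6 higher, 24 lower and 63 not called and a median of -0.32. That is 32.3% called, near the 28.7% of all probes measured on all arrays. The largest fall was that of Gm7854, at -2.86, -2.25 and -3.11 in PVBL and -1.01, -1.05 and -1.20 in sham liver (-1.66, SE 0.22, adjusted p = 0.00311, limma). 4831440E17Rik read -1.54, -1.22 and -1.25 in PVBL and -0.09, -0.18 and 0.04 in sham liver (-1.27, SE 0.14, adjusted p = 0.00160, limma). Gm4013 (-1.33), Gm12216 (-1.25) and 4930581F22Rik (-1.19) fell as well. In each of these 5 the groups did not overlap, which also held for 12328 of all 24665 probes measured on all arrays. All but Gm7854 lost their calls with spike-in scaling.

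Among the rises, 1700052K11Rik read 0.74, 1.56 and 0.96 in PVBL and 0.19, 0.19 and -0.28 in sham liver (1.05, SE 0.24, adjusted p = 0.0194, limma), and lost its call without sham 3 (0.89). Dubr, a long RNA known from muscle differentiation, rose by 0.86 (SE 0.21, adjusted p = 0.0226, limma), a call lost without PVBL 1 (0.87). Under normexp correction its difference was 0.30 and not called. Trmt61b (0.63) and 2810025M15Rik (0.46) were called, and with spike-in scaling (1.07 and 0.90) neither was.

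Trmt61b was not called without PVBL 1 (0.60), PVBL 2 (0.54), sham 1 (0.52), sham 2 (0.71) or sham 3 (0.68). 2810025M15Rik was not called without PVBL 1 (0.55), PVBL 2 (0.42), PVBL 3 (0.42), sham 1 (0.51), sham 2 (0.47) or sham 3 (0.42). Gm10389 and 2310001K24Rik were found on all sham arrays and no PVBL array, at least 1.70-fold and 1.38-fold lower.

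A further 43 probes, of 33 accessions, had no symbol in the RefSeq table. On the 41 measured on all arrays, 6 were higher and 15 lower. That is 51.2% called, against 28.7% of all probes measured on all arrays. NR_027360 (1.29) and NR_028432 (1.01) were the largest rises by accession, and NR_026976 (-1.16) and NR_024069 (-1.04) the largest falls. Several accessions had probes that disagreed, as NR_002840 with -0.72, 0.45 and 0.83.

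The rule on background drew its line where signals are dim. The 30 candidate probes that reached 2 arrays of a group, and so were left out, had a median mean level of -4.09. The 25 members complete in 1 group and present on at most 1 array of the other had a median of -3.79. At these levels a missing mark means only that the signal was not well above background.

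Summed marker signals of some other cell types differed between the groups in the same samples. Such a sum mostly follows its brightest markers, as Spp1 among the biliary and Alas2 among the erythroid markers. The summed signal of 7 endothelial markers ranged from 46.7 to 70.5 in PVBL and from 106.9 to 113.5 in sham liver, with 2 lower and none higher. Erythroid markers (3 of 5 tested) summed to 14.2 to 27.1 against 35.8 to 45.5, with 2 lower. Biliary markers (6 of 7) summed to 6.97 to 21.4 against 2.16 to 4.50, with 3 higher and 1 lower, and stellate markers (7) to 15.1 to 34.6 against 9.21 to 12.7, with 2 higher and 1 lower. Ranges overlapped for Kupffer, lymphocyte, neutrophil and pancreas markers, where 1 Kupffer marker rose and 2 lymphocyte markers fell. Among all probes tested, 11.0% were higher and 19.5% lower. The part of these cell types in the differences above was not tested.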

How the data were processed

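RNA was measured on 6 single-colour Agilent arrays, 3 PVBL and 3 sham. The deposited scanner files hold intensity values per spot. The software was Feature Extraction 10.7.3.1 on design 028005 (mm9), per the file headers, while the submitters' processing notes name version 9.1. The deposited value table holds log2 values for 7849 probes that are not controls, centred on each probe. With these values 97.5% of the probes were called, so it was used only as an alternative.

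Spots flagged as outliers were dropped, the others averaged by probe, and log2 of the processed intensity taken minus the array's 75th percentile. Probes well above background on each array of a group (27919) were tested with limma 3.58.1 in R 4.3.3 (lmFit, eBayes, two-sided) and adjusted by Benjamini-Hochberg across these probes, at a threshold of 0.05. SE is limma's moderated standard error. Symbols came from the RefSeq table (GRCm38.p6) through unversioned accessions, so no coordinates are given for the probes. The script was tested on simulated data.

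Members and lists were chosen with earlier results of these data known. Named were all listed hosts and long RNAs, the 6 largest called differences of the antisense, pseudogene, small RNA and coding-gene classes, the 5 largest rises and falls of other long RNAs, and up to 6 probes per direction found in 1 group only. Genes outside this rule were named after their values were seen: the opposed pairs, Gm14207, the snoRNA-spanning transcripts, 2700099C18Rik, Cyp2d37-ps, Macroh2a3, Dio3os, Terc, Rmrp, Rpph1 and the probes without a symbol. The small RNA class was widened to ribosomal, 4.5S and RNase P or MRP related symbols after the members were seen, classes came from symbols and gene types since no descriptions were at hand, and the parents of pseudogenes were matched by symbol. The normexp alternative (offset 50) used median instead of mean signals, because the files analysed here give the median. Searches for other motifs in promoters of some members were also made and are not reported.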

Additional observations from a re-analysis of the deposited data

How the results depend on the processing

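Over the named probes and their alternatives, 719 values kept their side of the threshold, 123 lost a call and 27 gained one. No value called at first changed sign, while some that were not called, such as Snhg7 and Dancr, did so with spike-in scaling. Without a filter on dim probes, 8 members were higher and 23 lower, and 1646 and 1957 of all probes. Array weights gave 44 and 127 members, and 5331 and 10673 of all probes. Spike-in scaling left 5 members and 454 of all probes lower, and array-median scaling 3290 of all probes lower. Leaving out 1 array at a time gave 13 to 22 members higher and 32 to 64 lower, and 1945 to 3214 higher and 2222 to 5344 lower of all probes.

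Class medians shifted with the scaling. With array-median scaling they were -0.37 for snoRNA hosts, 0.031 for listed long RNAs, -0.55 for antisense, 0.067 for pseudogene transcripts, -0.10 for all members and -0.030 for all probes. With spike-in scaling they were -0.076, 0.33, -0.25, 0.36, 0.20 and 0.27. Quantile normalization gave 0.11 for pseudogene transcripts, -0.17 for all members and -0.10 for all probes, and normexp correction gave -0.40 for snoRNA hosts, -0.42 for antisense and -0.19 for all members. Leaving out 1 array at a time, medians ranged from -0.52 to -0.37 for snoRNA hosts, -0.16 to -0.018 for listed long RNAs, -0.68 to -0.53 for antisense, -0.16 to -0.0094 for pseudogene transcripts and -0.27 to -0.18 for all members. The cause of these shifts beyond the scaling itself was not tested.

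The labels do not say whether the replicate numbers pair the samples. Deviations of same-numbered arrays correlated at 0.19, -0.04 and 0.22. Differently numbered arrays were not compared, so these values do not decide it. With the replicate block 20 members were higher and 60 lower, and 2771 and 4584 of all probes. Under that block Snhg1, Snhg17, Peg13, Zfp672, Rnu3b1 and 2810025M15Rik were no longer called, and Snhg3 was. Without the filter on dim probes the named calls lost were those of Snhg1, Snhg6, Snhg17, Peg13, Dlx6os2, G6bos, Rnu3b1, Rnu7, Speer1, Zfp672, Dubr, Trmt61b, 1700052K11Rik, 2810025M15Rik, Tnk2os, Gm10389 and Speer8-ps1. With array weights Snhg3, Snhg7, Snhg16, Dancr, Neat1, Tug1, Pvt1, Airn, Norad, Kcnq1ot1 and Has2os were called besides. Dim probes limit the folds of members found in 1 group, which fell under normexp correction.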
